A study of Mus musculus with 6 samples.

Results

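The 39 nuclear genes described here encode subunits of the last steps of mitochondrial respiration: 9 of respiratory complex III, cytochrome c itself (Cycs), 14 of complex IV and 15 of complex V. They were found by NCBI gene ID among the 18019 genes of a table of mouse heart RNA, where 14 of the complex V genes carry their older symbols (Atp5f1a is Atp5a1 there, Atp5mc1 is Atp5g1). All 39 passed the filter of a mean of at least 1 FPKM (fragments counted on a gene, divided by its length and by the library's depth) that left 11422 genes for testing. The hearts came from WT mice 8 weeks after TAC, a constriction that makes the left ventricle pump against high pressure, and both groups carried the band. In the 3 VNS-TAC samples the dorsal vagal motor nucleus had received rAAV-ChAT-hChR2[H134R]-GFP, a virus whose light-gated channel is driven by the ChAT promoter, so that cholinergic vagal neurones can be fired by light. In the 3 Ctrl-TAC samples it had received rAAV-ChAT-GFP, without the channel. The names of the VNS-TAC columns carry a frequency in Hz, but how and when light was given, in either group, is not described here. The labels give no age, sex or strain, include no sham-operated group, and do not say whether each library is 1 animal, so the p-values rest on the variation among these 6 libraries alone, some of which may be technical.

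Complex III passes electrons from ubiquinol to cytochrome c, complex IV passes them from cytochrome c to oxygen, and both pump protons across the inner mitochondrial membrane. Complex V, ATP synthase, lets the protons flow back through a rotating ring and makes ATP. Heart muscle is among the tissues richest in these enzymes, and part of complex IV exists in a form particular to heart and skeletal muscle beside one found in most tissues. Some core subunits of all 3 complexes are made from mitochondrial DNA, and these were not analysed here.

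The depth read from the steps of low FPKM values was about 13900000 to 16060000 fragments per library, an estimate that entered no test. VNS-TAC 1 and VNS-TAC 3 stand apart from the rest across the whole table and from each other, and weights estimated from the fit were 0.246 and 0.247 for them against 2.82 for VNS-TAC 2. Heart muscle markers were present in every library. The 12 cardiomyocyte markers, all detected, reached a sum of 86856 FPKM (VNS-TAC 1), 73916 (VNS-TAC 2) and 55833 (VNS-TAC 3), with the controls between 65626 and 67869. Of 9 skeletal muscle markers, 7 had a mean under 1 FPKM, and the list summed to between 3.52 and 6.66 FPKM in each of the 6 libraries. Brown fat also uses the muscle forms of complex IV. Its defining gene Ucp1 was listed at 2.08 FPKM in VNS-TAC 2, at 0 in the other two VNS-TAC libraries and at 0 to 0.04 in the controls. Elovl3 and Dio2 of that list of 6 also had a mean under 1 FPKM, while Cidea, Ppara and Plin5, which heart muscle also expresses, had means above it. The 6 atrial cardiomyocyte markers summed to 3882, 5533 and 9125 FPKM against 6329, 3079 and 9900 in Ctrl-TAC 1, 2 and 3. Among the controls alone, Myl7 of that list ran from 195 to 1005 FPKM. Other cell types differed between libraries too. The 10 neutrophil markers, all higher on average in VNS-TAC and 6 of them with a mean of at least 1 FPKM, summed to 69.8, 57.5 and 184 FPKM against 5.56 to 9.22, the 8 fibroblast markers to 321, 353 and 449 against 481 to 551, and the 6 red cell markers to 1503, 310 and 25.1 against 183 to 578. The fibroblast sum followed Dcn, at 152, 241 and 388 FPKM against 257 to 285, and Pdgfra also rose from VNS-TAC 1 to VNS-TAC 3. Col1a1, Col1a2, Col3a1, Lum, Postn and Tcf21 were instead lowest of the 6 libraries in VNS-TAC 3. For Col3a1 the values were 48.4, 15.2 and 8.94 FPKM against 46.7 to 66.3. The part of these cell types in the results was not tested.

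The members were among the abundant RNAs of these hearts, with a median over members of 1118 FPKM against 8.97 over all genes tested. Together they made up 10.1%, 9.04% and 7.74% of the summed FPKM of the table in VNS-TAC 1, 2 and 3, with the controls from 8.07% to 8.47%. The most abundant was Atp5f1b, the catalytic beta subunit of ATP synthase, at a mean of 3523 FPKM over the 6 libraries, followed by the complex IV subunit Cox6a2 at 3253. The least abundant were Cox6a1 at 247 and Cycs at 295 FPKM. In complex IV the muscle forms Cox6a2, Cox7a1 and Cox8b (3253, 1459 and 1346 FPKM) exceeded their ubiquitous partners Cox6a1, Cox7a2 and Cox8a (247, 417 and 313 FPKM) in every library.

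**Figure D1:**
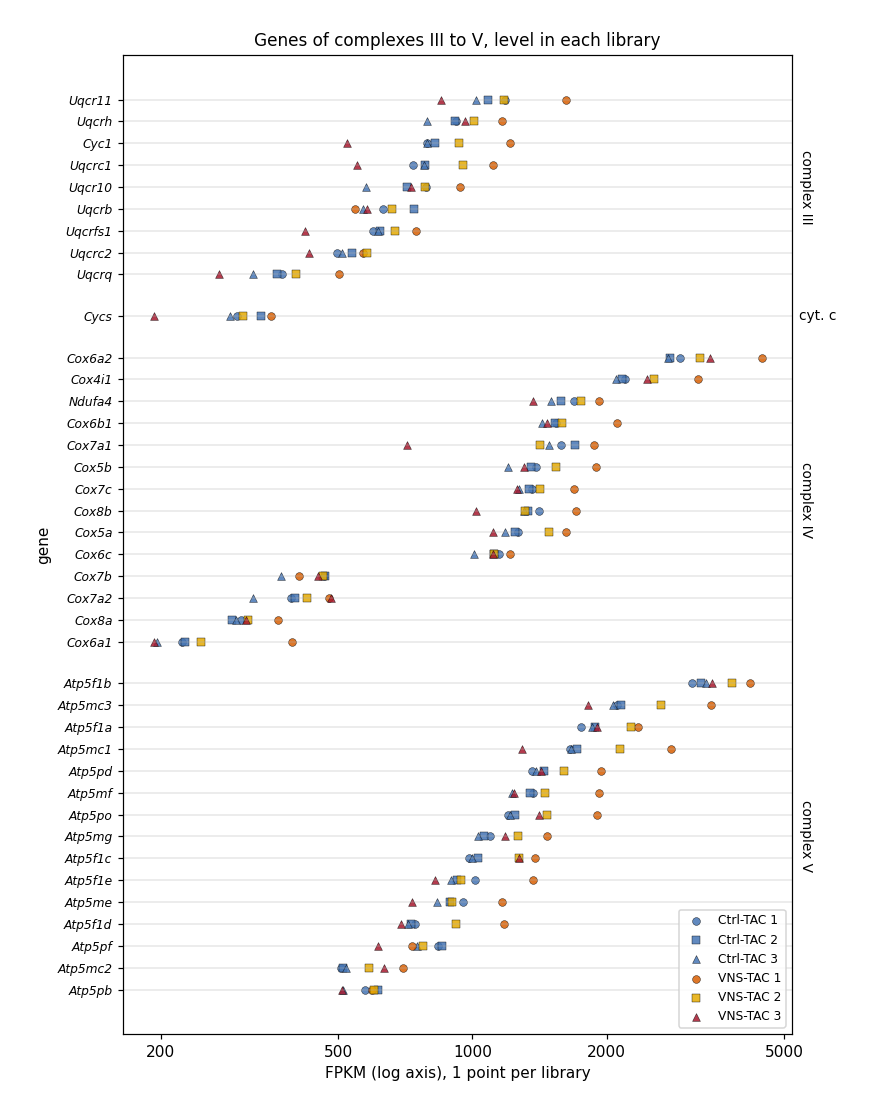
FPKM of the 39 genes on a log axis, 1 point per library, with genes ordered by mean level within each complex. Levels run from about 247 FPKM (Cox6a1) to 3523 FPKM (Atp5f1b) in mean. VNS-TAC 1 (orange circles) is the highest point for 33 of the 39 genes, against 2172 of all 11422 genes tested.

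Comparing VNS-TAC with Ctrl-TAC asks how these RNAs differ in overloaded hearts between mice with and without the light-gated channel in vagal neurones. No member passed the test (limma with Benjamini-Hochberg adjustment over all 11422 genes, threshold 0.05), and neither did any other gene, which is a background of 0.0%. The smallest adjusted p among members was 0.264, for Atp5f1c. At an unadjusted p under 0.05, limma gave 2 members, both higher in VNS-TAC and both of complex V, against a background of 3.79% higher and 11.3% lower over all genes. That split depends on scaling. The counts were 433 higher and 1286 lower as deposited, 790 and 900 with size factors, 907 and 759 after quantile normalization and 213 and 1767 with the same sum per library.

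Most member means were higher in VNS-TAC as deposited. Of the 39 members, 33 were higher on average in VNS-TAC (84.6%), against 38.2% of all genes tested, and the median log2 fold change was 0.17 against -0.08. The counts depended on scaling. For complexes III, IV and V, 2 of 9, 8 of 14 and 11 of 15 genes were higher after quantile normalization. The median log2 fold change over all genes was then 0.012. With the length trend removed the counts were 4, 7 and 11 (all-gene median -0.082). With the same sum per library they were 5, 9 and 12 (-0.149), and with size factors 8, 13 and 14 (-0.019). As deposited, in 11 members all 3 VNS-TAC values lay above all 3 Ctrl-TAC values, against a background of 8.01% of genes, and in 0 members did they all lie below, against 17.4%. Those 11 were Uqcrh, Cox4i1, Cox6a2, Cox7a2, Cox8a, Atp5f1a, Atp5f1b, Atp5f1c, Atp5po, Atp5mc2 and Atp5mg.

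The libraries of the VNS-TAC group did not move together. Relative to the Ctrl-TAC mean, the median over the 39 members on the log2 scale was 0.44 in VNS-TAC 1, 0.19 in VNS-TAC 2 and -0.08 in VNS-TAC 3, while the Ctrl-TAC libraries lay between -0.06 and 0.04. In VNS-TAC 1, 35 of the 39 members exceeded every Ctrl-TAC value, against 3186 of all 11422 genes tested. In VNS-TAC 3, 11 members did so, against 4256 of all genes, and 20 lay below every Ctrl-TAC value, against 4593. The sum of the cardiomyocyte markers had the same order, as did Tnni3, Actc1, Myl2, Myl3 and Mb among them, but the other markers did not, and Tnnt2 ran from 7995 FPKM (VNS-TAC 1) through 9579 to 15154 (VNS-TAC 3). Macrophage, endothelial and red cell marker sums shared the members' order. The 8 macrophage markers summed to 373, 241 and 197 FPKM against 295 to 323 in the controls. For the 8 endothelial markers the sums were 389, 352 and 319 FPKM against 385 to 436. The summed FPKM of the members came to 68.1%, 66.2% and 73.7% of the cardiomyocyte markers' sum in VNS-TAC 1, 2 and 3, with the controls between 63.5% and 66.4%. In bulk tissue, fewer muscle cells and less RNA per cell cannot be told apart. The part of the marker levels in the members' differences was not tested.

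**Figure D2:**
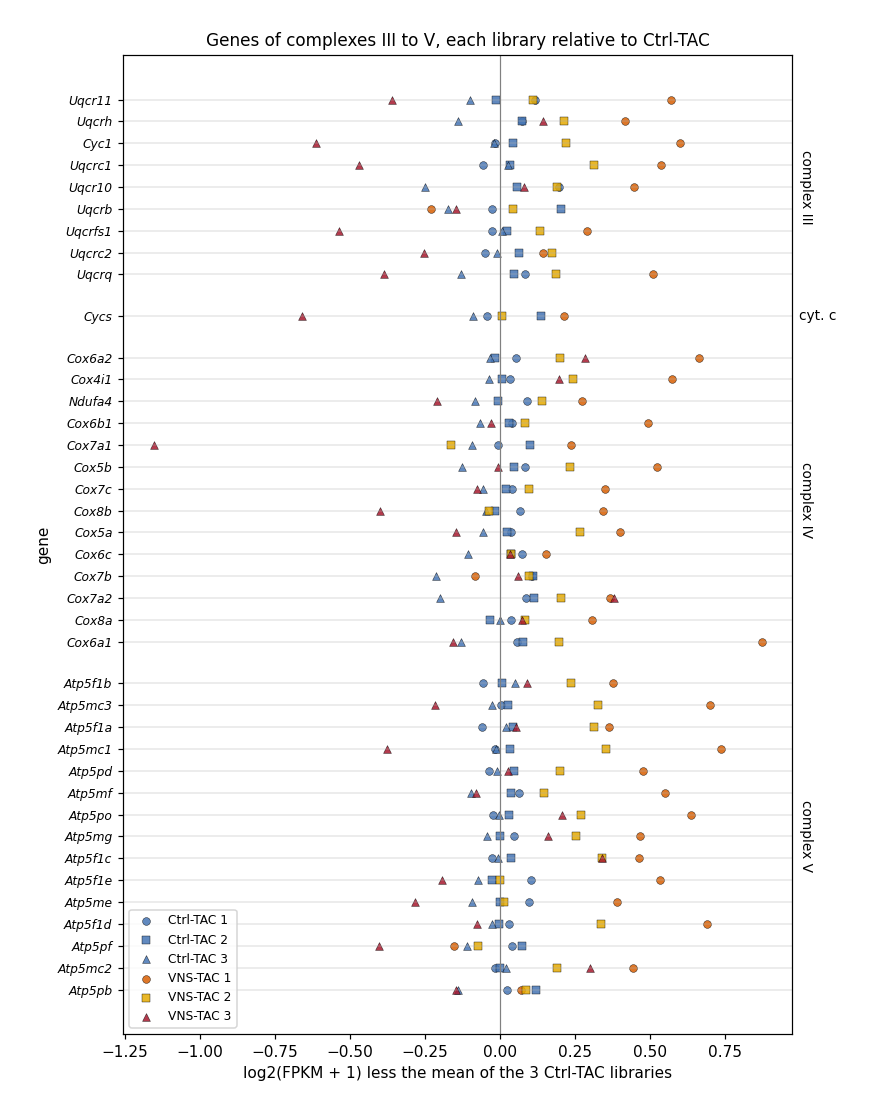
Each library's log2(FPKM + 1) less the mean of the 3 Ctrl-TAC libraries, for the 39 genes. VNS-TAC 1 (orange circles) lies to the right for most genes, whereas VNS-TAC 3 (dark red triangles) ranges from -1.16 for Cox7a1 to 0.38 for Cox7a2.

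Scaling mattered for these abundant genes. After quantile normalization, 4 members still had VNS-TAC wholly above Ctrl-TAC, namely Uqcrh, Atp5f1c, Atp5po and Atp5mg, against 14% of all genes, and Atp5pf lay wholly below, against 10.4%. When every library was rescaled to the same sum, 9 members remained above, against 4.51% of all genes, and Atp5pf lay wholly below, against 24.5%. With the trend of each library on transcript GC content removed, 9 remained, against 5.43% of all genes. With the trend on transcript length removed, 7 remained, against 7.61%, while Cox7a1, Cox8b, Atp5pf and Atp5me lay wholly below, against 17.5%. The members are short, with a median transcript length of 738 bases against 3108 over all genes tested, and in VNS-TAC 1 the deviation from Ctrl-TAC over all genes correlated with length at -0.404 and with GC content at 0.585 (Spearman, across 11319 genes that share 1 library, as a description). Over the 39 members the same correlations were 0.0294 and 0.42. In the other libraries they ran from -0.22 to 0.134 for length and -0.318 to 0.279 for GC content over all genes. Over the members they ran there from -0.608 to 0.439 and from -0.333 to 0.219. The part of GC content and length in the members' differences was not tested beyond these trends.

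Complex III had the widest range between the VNS-TAC libraries. In what follows, 3 values against 3 are FPKM in VNS-TAC 1, 2 and 3 against Ctrl-TAC 1, 2 and 3, and a range after "against" spans the controls. Of its 9 genes, 7 were higher on average, with a median log2 fold change of 0.10, which became -0.07 under quantile normalization and -0.02 once the length trend was taken out. Its median per library was 0.45, 0.19 and -0.36 in VNS-TAC 1, 2 and 3. Leaving out VNS-TAC 1 brought the log2 fold change to -0.08, and leaving out VNS-TAC 3 brought it to 0.32 (medians over the 9 genes).

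The electron-carrying subunits and the large core proteins were low in VNS-TAC 3. Cyc1, the cytochrome c1 subunit, was at 1216, 933.8 and 524 FPKM against 792, 826 and 790.4. VNS-TAC 1 and 2 therefore lay above all controls and VNS-TAC 3 below, and the log2 fold change was 0.07 ± 0.29 (SE; limma adjusted p = 0.923). Uqcrfs1, the Rieske iron-sulphur protein, was at 746, 669 and 420.4 FPKM against 599 to 620. Uqcrc1, a core protein that faces the matrix, was at 1109, 950.1 and 552 FPKM against 734 to 783. The other core protein gene, Uqcrc2, was at 568, 580.1 and 430.6 against 497 to 536. In all 4, VNS-TAC 3 lay below every control and the other two VNS-TAC libraries above. Cycs, the mobile carrier that takes electrons from complex III to complex IV, was at 354, 306 and 193 FPKM against 296, 335 and 286, so that VNS-TAC 3 was again the lowest library (log2 fold change -0.15 ± 0.23 (SE), limma adjusted p = 0.761).

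Small subunits were less uniform. Uqcrh, the hinge protein that contacts cytochrome c1, was at 1163, 1010 and 964 FPKM against 916, 916 and 789.8. It was the only complex III gene whose groups did not overlap, with a log2 fold change of 0.26 ± 0.14 (SE; limma adjusted p = 0.419). With the length trend removed that value was 0.07 and the groups overlapped, and under quantile normalization it was 0.14. Uqcr10, a small transmembrane subunit, was at 936, 783 and 727 FPKM against 787, 714 and 577, and its groups overlapped (log2 fold change 0.24 ± 0.17 (SE), limma adjusted p = 0.518). Uqcr11, the most abundant RNA of the complex, was at 1621, 1178 and 849.9 FPKM against 1182, 1081 and 1018, with VNS-TAC 3 lowest (log2 fold change 0.11 ± 0.24 (SE), limma adjusted p = 0.839). Uqcrb went another way, with VNS-TAC 1 the lowest library at 546 FPKM, VNS-TAC 2 and 3 at 660.5 and 579 and Ctrl-TAC at 629, 739 and 568 (log2 fold change -0.11 ± 0.15 (SE), limma adjusted p = 0.731). The remaining small subunit, Uqcrq, had 503, 402 and 270 FPKM against 323 to 375, with VNS-TAC 3 below every control.

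Of the 14 complex IV genes, 12 were higher on average. The median log2 fold change was 0.16, but 0.01 after quantile normalization and -0.01 once the length trend was taken out. The median per library was 0.36, 0.12 and -0.02 in VNS-TAC 1, 2 and 3. VNS-TAC lay wholly above the controls in 4 genes, against 8.01% of all genes, and in 0 of the 14 after quantile normalization, against 14%. Cox4i1, the subunit through which ATP inhibits the enzyme, was at 3209, 2547 and 2466 FPKM against 2202, 2166 and 2098. Its log2 fold change was 0.34 ± 0.16 (SE; limma adjusted p = 0.366), or 1.27-fold on mean FPKM, and it was 0.12 under quantile normalization. Cox5a and Cox5b, which sit on the matrix side of the complex, were at 1111 to 1623 and 1306 to 1887 FPKM in VNS-TAC against 1183 to 1263 and 1201 to 1388. Both overlapped, with VNS-TAC 3 within or below the controls.

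The subunits with a muscle form and a ubiquitous form included both the highest and the lowest log2 fold change of the 39 members. Cox6a2, the muscle form, was at 4447, 3227 and 3415 FPKM against 2912, 2771 and 2745, with no overlap and a log2 fold change of 0.38 ± 0.18 (SE; limma adjusted p = 0.352), which was 0.22 with the length trend removed. Its partner Cox6a1 was at 394, 247 and 193 FPKM against 224, 227 and 197, so that VNS-TAC 1 was high and VNS-TAC 3 just below the controls (log2 fold change 0.30 ± 0.25 (SE), limma adjusted p = 0.565). Cox7a1, the muscle form of subunit VIIa, was at 1867, 1416 and 711 FPKM against 1579, 1699 and 1484. VNS-TAC 3 was far below every control, and VNS-TAC 1 was above all of them. The ubiquitous form Cox7a2 was at 477, 426 and 481 FPKM against 393, 399.9 and 322, with no overlap and a log2 fold change of 0.32 ± 0.14 (SE; limma adjusted p = 0.34), which was 0.18 under quantile normalization and 0.15 once the length trend was taken out. Cox7a1 thus had the lowest log2 fold change of the 39 members, at -0.36 ± 0.33 (SE; limma adjusted p = 0.6), and without VNS-TAC 3 it was 0.04. Cox8b, the muscle form of subunit VIII, was at 1707, 1310 and 1019 FPKM against 1410, 1329 and 1303 (log2 fold change -0.03 ± 0.20 (SE), limma adjusted p = 0.946). Cox8a was at 366, 313 and 311 FPKM against 303, 289 and 296, narrowly above all controls (log2 fold change 0.15 ± 0.12 (SE), limma adjusted p = 0.555). The separation of Cox8a was lost under quantile normalization and when the GC or length trend was taken out.

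A ratio of 2 genes within 1 library is not altered by a single scaling factor for that library. The ratios were not computed under quantile normalization. The FPKM of Cox7a1 was 3.91, 3.32 and 1.48 times that of Cox7a2 in VNS-TAC 1, 2 and 3 and 4.02, 4.25 and 4.61 times in Ctrl-TAC. All 3 VNS-TAC ratios were below all 3 controls, and the log2 ratio was 1.42 ± 0.75 against 2.10 ± 0.10 (SD, n = 3; 2-sided exact permutation p = 0.1, the smallest that 3 against 3 can give, and 0.3 adjusted over the 3 pairs). The difference in log2 ratio was -0.68, and -0.25 without VNS-TAC 3. The Cox8b to Cox8a ratio was 4.66, 4.18 and 3.28 against 4.41 to 4.65 (exact permutation p = 0.4, adjusted 0.6). The Cox6a2 to Cox6a1 ratio ran the other way in VNS-TAC 3, at 11.3, 13.1 and 17.7 against 12.2 to 14 (exact permutation p = 0.8, adjusted 0.8), and without VNS-TAC 3 the sign of its difference turned. VNS-TAC 3 thus had the lowest muscle share of the 6 libraries for subunits VIIa and VIII and the highest for subunit VIa.

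The sequences around the start sites of the Cox7a pair are shown because their RNAs diverged within VNS-TAC 3. They are RefSeq windows of GRCm38.p6, from 250 bases before to 50 after an annotated start, on the strand of the gene, with motif matches in capitals. Cox7a1 lies at chr7:30183921-30184220 (plus strand) and Cox7a2 at chr9:79759804-79760103 (minus strand). The Cox7a2 window lies inside its gene, which spans chr9:79755241-79771422. Any other start of these genes was not searched.
Cox7a1: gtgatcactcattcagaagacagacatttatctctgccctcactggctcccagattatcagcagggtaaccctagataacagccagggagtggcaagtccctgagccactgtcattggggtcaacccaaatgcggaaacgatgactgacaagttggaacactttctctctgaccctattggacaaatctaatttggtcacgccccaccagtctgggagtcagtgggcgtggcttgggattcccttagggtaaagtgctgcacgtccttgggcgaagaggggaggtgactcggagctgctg
Cox7a2: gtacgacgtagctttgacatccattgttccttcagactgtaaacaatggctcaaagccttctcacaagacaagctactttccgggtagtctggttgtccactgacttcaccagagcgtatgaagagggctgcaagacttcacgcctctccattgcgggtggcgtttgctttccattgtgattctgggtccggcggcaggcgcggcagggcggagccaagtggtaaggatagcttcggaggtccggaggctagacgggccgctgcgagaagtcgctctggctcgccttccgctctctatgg
Neither window holds a match, on either strand, to any of the 5 motifs searched, which says only that these letters are not in these windows. The motifs were GCGC and TGCGC with any 1 base between them for nuclear respiratory factor 1, CCGGAAG for ETS factors, AAGGTCA for oestrogen-related receptors, AANATGGC for YY1 and TATAAA for the TATA box.

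The remaining complex IV genes overlapped between the groups. Ndufa4, once assigned to complex I and now counted with complex IV, was at 1917, 1747 and 1369 FPKM against 1498 to 1688, with VNS-TAC 3 lowest. Cox6b1, which links the monomers of the enzyme, was at 2107, 1589 and 1466 against 1431 to 1541, with a log2 fold change of 0.18. Cox6c, Cox7b and Cox7c, small membrane subunits, had log2 fold changes of 0.07, 0.02 and 0.12.

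Complex V had the highest median of the 3 complexes. Of its 15 genes, 14 were higher on average, with a median log2 fold change of 0.24 that became 0.11 under quantile normalization, once the length trend was taken out, or when VNS-TAC 1 was left out. The median per library was 0.47, 0.24 and -0.08 in VNS-TAC 1, 2 and 3. VNS-TAC lay wholly above the controls in 6 of the 15 genes, against 8.01% of all genes. After quantile normalization it did so in 3, against 14% of all genes, and lay wholly below in 1, Atp5pf.

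The catalytic head of the enzyme, F1, is built from alpha and beta subunits around the gamma shaft. Atp5f1c, the gamma subunit, was at 1384, 1269 and 1268 FPKM against 983, 1029 and 998. The groups were well apart, by more than the spread within either, with 1307 ± 66.3 against 1003 ± 23.7 FPKM (SD, n = 3). The log2 fold change was 0.38 ± 0.13 (SE; unadjusted p = 0.0197 and adjusted p = 0.264 in limma), and it was 0.34 to 0.40 when any 1 library was left out and 0.23 under quantile normalization. Atp5f1b, the catalytic beta subunit, was at 4193, 3810 and 3438 FPKM against 3108, 3247 and 3345, with a log2 fold change of 0.23 ± 0.16 (SE; limma adjusted p = 0.485), and its groups overlapped under quantile normalization and with the same sum per library. Atp5f1a, the alpha subunit, was at 2353, 2271 and 1897 FPKM against 1753, 1885 and 1853, so that VNS-TAC 3 cleared the highest control by a small margin. For Atp5f1a the separation was lost after quantile normalization, with the same sum per library and with the GC or length trend removed. The subunits at the foot of the shaft behaved otherwise in VNS-TAC 3. Atp5f1d (delta) was at 1174, 920.1 and 691 FPKM against 715 to 744, and Atp5f1e (epsilon) at 1366, 942 and 825 against 896 to 1013, both with VNS-TAC 3 below every control.

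The peripheral stalk holds the head still against rotation. Atp5po, the subunit known as OSCP at the top of the stalk, was at 1899, 1470.1 and 1408 FPKM against 1202, 1245 and 1216, with no overlap and a log2 fold change of 0.37 ± 0.16 (SE; limma adjusted p = 0.338), which was 0.22 under quantile normalization. Atp5pf, coupling factor 6 of the same stalk, was at 731.5, 774 and 615 FPKM against 837, 855 and 753. It was the only complex V gene lower on average, at a log2 fold change of -0.21, and its groups overlapped through VNS-TAC 2 as deposited. Atp5pd was at 1941, 1603 and 1421 FPKM against 1362 to 1443. Atp5pb, subunit b, did not differ by more than its spread, at 568 ± 49.9 against 568 ± 51.4 FPKM (SD, n = 3). Genes of 1 stalk therefore stood on both sides of the control mean.

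The proton-driven ring is made of copies of subunit c. Atp5mc1, Atp5mc2 and Atp5mc3 encode the same mature subunit behind different import sequences. Atp5mc3 was at 3421, 2646 and 1816 FPKM against 2112, 2147 and 2069. Atp5mc1 was at 2785, 2139 and 1288 FPKM against 1652, 1711 and 1658. In both, VNS-TAC 1 and 2 lay above all controls and VNS-TAC 3 below, with log2 fold changes of 0.27 ± 0.24 for Atp5mc3 and 0.24 ± 0.27 for Atp5mc1 (SE; limma adjusted p = 0.584 and 0.676). Atp5mc2, the least abundant of the 3, was at 700.3, 586 and 633 FPKM against 508, 514 and 521. Its groups did not overlap, with a log2 fold change of 0.31 ± 0.13 (SE; unadjusted p = 0.0431 and adjusted p = 0.318 in limma). Under quantile normalization that value was 0.09 and the groups overlapped, and with the length trend removed it was 0.16. Within VNS-TAC 3 the Atp5mc1 to Atp5mc2 ratio was 2.04, with 3.98 for VNS-TAC 1, 3.65 for VNS-TAC 2 and 3.18 to 3.33 for the controls. The Atp5mc3 to Atp5mc2 ratio was 2.87 there, with 4.89, 4.51 and 3.97 to 4.18 in the same order. These 2 ratios were chosen after their values were seen and were not tested.

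**Figure D3:**
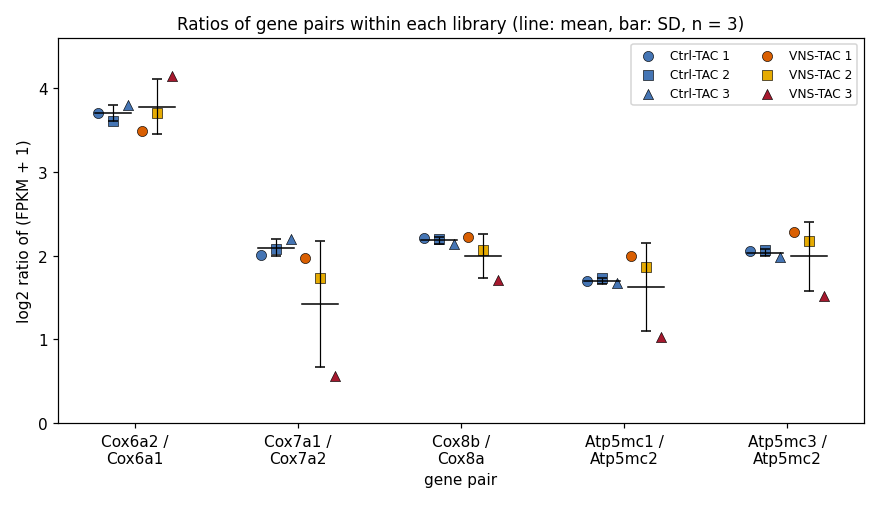
Log2 ratio of FPKM + 1 for 5 gene pairs within each library (points), with the group mean (line) and SD (bar), n = 3 per group. VNS-TAC 3 (dark red triangle) has the lowest ratio for 4 pairs, down to 0.56 for Cox7a1 to Cox7a2, and the highest for Cox6a2 to Cox6a1 at 4.14.

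The start-site windows of the 3 subunit c genes, of the same RefSeq build and length, are shown because the genes share a product but not a pattern. Atp5mc1 lies at chr11:96075582-96075881, Atp5mc2 at chr15:102670998-102671297 and Atp5mc3 at chr2:73911277-73911576, all on the minus strand. The Atp5mc3 window lies inside its gene, which spans chr2:73908447-73912464. Any other start of these genes was not searched.
Atp5mc1: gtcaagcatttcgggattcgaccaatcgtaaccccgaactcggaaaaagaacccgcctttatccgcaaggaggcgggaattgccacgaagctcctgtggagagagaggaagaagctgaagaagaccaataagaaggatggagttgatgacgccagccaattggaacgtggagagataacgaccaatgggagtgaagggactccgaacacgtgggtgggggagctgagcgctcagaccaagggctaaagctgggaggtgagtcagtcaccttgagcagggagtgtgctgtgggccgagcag
Atp5mc2: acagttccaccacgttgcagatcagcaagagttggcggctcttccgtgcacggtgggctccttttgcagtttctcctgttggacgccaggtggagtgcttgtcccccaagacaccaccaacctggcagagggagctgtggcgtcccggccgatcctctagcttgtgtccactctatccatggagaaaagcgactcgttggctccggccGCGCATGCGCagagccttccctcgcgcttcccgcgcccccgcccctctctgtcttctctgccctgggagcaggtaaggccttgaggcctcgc
Atp5mc3: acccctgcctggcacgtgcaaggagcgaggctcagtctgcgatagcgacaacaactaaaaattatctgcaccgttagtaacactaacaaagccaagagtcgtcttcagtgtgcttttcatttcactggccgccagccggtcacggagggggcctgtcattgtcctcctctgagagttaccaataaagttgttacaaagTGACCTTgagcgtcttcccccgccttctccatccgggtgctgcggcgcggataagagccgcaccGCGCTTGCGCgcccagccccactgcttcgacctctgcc
The capitals mark a nuclear respiratory factor 1 match, GCGCATGCGC in Atp5mc2 and GCGCTTGCGC in Atp5mc3, and in Atp5mc3 also TGACCTT, the reverse complement of the oestrogen-related receptor motif. Atp5mc1 holds none of the 5 motifs. Of the 39 members, 31 had a window (3 of them more than 1), and 8 of these 31 held the nuclear respiratory factor 1 motif (25.8%, against 5.19% of 27025 genes with a window). Of those 8, 6 are complex V genes, as are 14 of the 31 genes with a window. The 8 are Atp5f1c, Atp5mc2, Atp5mc3, Atp5me, Atp5pd, Atp5po, Cox6a1 and Uqcrc1. The ETS motif was in 10 of 31 (32.3%, against 9.93%), the YY1 motif in 5 (16.1%, against 6.96%), the oestrogen-related receptor motif in 4, all of complex V (12.9%, against 5.38%), and the TATA box in 2 (6.45%, against 15.7%). The background for these motifs is every gene with a window, whether or not its RNA was detected here. It was not matched to the members for expression or GC content. A match is a string of letters and does not show binding.

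The other membrane subunits hold the dimer of the enzyme in shape. Atp5mg (subunit g) was at 1466, 1263 and 1186 FPKM against 1095, 1061 and 1029, with no overlap and a log2 fold change of 0.29 ± 0.14 (SE; limma adjusted p = 0.367). Atp5me (subunit e) was at 1166, 899 and 730.3 FPKM against 834 to 952, and Atp5mf (subunit f) at 1923, 1451 and 1240 against 1225 to 1370. Both overlapped, and for Atp5me VNS-TAC 3 lay below every control. VNS-TAC 1 was above every control for all 3 of these genes.

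Genes around these complexes were listed for comparison, where 38.2% of all genes tested were higher on average in VNS-TAC. Of 36 nuclear complex I subunits, 31 were higher on average and in 5 the VNS-TAC values lay wholly above the controls, against 8.01% of all genes. Their median log2 fold change was 0.14 and the medians per library were 0.45, 0.20 and -0.21. Complex I therefore showed the same order of libraries as complexes III to V. None passed the adjusted test in limma, and 3 were higher at an unadjusted p under 0.05, against 3.79% of all genes. Ndufv1, which binds NADH, was at 757, 681 and 708 FPKM against 545, 558 and 577 (log2 fold change 0.35 ± 0.12 (SE), limma adjusted p = 0.264). Ndufb9 was at 1741, 1520.1 and 1406 FPKM against 1228, 1194 and 1136 (log2 fold change 0.39 ± 0.15 (SE), limma adjusted p = 0.288). All 4 complex II genes were higher on average, and in each the groups overlapped. Sdhb, an iron-sulphur subunit, was at 1145, 932 and 698 FPKM against 796, 816 and 809 (log2 fold change 0.17 ± 0.19 (SE), limma adjusted p = 0.676). Sdha, the succinate-binding flavoprotein, was at 538, 585 and 545 FPKM against 494, 553 and 508 (log2 fold change 0.10 ± 0.12 (SE), limma adjusted p = 0.689).

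Assembly factors, which build the complexes without being part of them, had a different balance from the subunits. Of 32 tested (33 listed), 9 were higher and 23 lower on average, where 38.2% of all genes tested were higher. Their median log2 fold change was -0.12, against -0.08 over all genes, with medians per library of 0.14, -0.07 and -0.51. At an unadjusted p under 0.05 limma gave 1 higher, Cox10, and 1 lower, Lyrm7, against 3.79% and 11.3% of all genes, and 0 after adjustment. Cox10, which makes the haem of complex IV, was at 50.3, 40.4 and 40.5 FPKM against 30.1, 33.2 and 33.7 (log2 fold change 0.42 ± 0.13 (SE), limma adjusted p = 0.253). Lyrm7, a factor for the Rieske protein of complex III, was at 7.96, 7.59 and 4.69 FPKM against 10.2, 9.98 and 8.65 (log2 fold change -0.48 ± 0.20 (SE), limma adjusted p = 0.315). These RNAs were far less abundant than the subunits they serve.

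The carriers that feed ATP synthase and export ATP included 3 genes of 6 with VNS-TAC wholly above the controls, against 8.01% of all genes. Slc25a4, the main adenine nucleotide translocase of heart, was at 6821, 7426 and 9349 FPKM against 5534, 5697 and 5120 (log2 fold change 0.52 ± 0.19 (SE), limma adjusted p = 0.278). VNS-TAC 3 was the highest library here, whereas 20 of the 39 members were at their lowest there, against 3027 of all 11422 genes tested. Its relative Slc25a5 was at 262, 230.1 and 244 FPKM against 193, 208 and 196 (log2 fold change 0.30 ± 0.12 (SE), limma adjusted p = 0.296). Of the 6 carriers, 5 were higher on average (median log2 fold change 0.25), and 0 passed the adjusted test in limma.

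Of further subunits and isoforms, 7 of 11 listed were tested, with 4 higher and 3 lower on average and 0 past an unadjusted p of 0.05. Atp5if1, the inhibitor that stops ATP synthase from running backwards, was at 89.2, 85.7 and 130 FPKM against 86.4, 79.2 and 87.6, so that VNS-TAC 3 was the high library (log2 fold change 0.24 ± 0.17 (SE), limma adjusted p = 0.521). Cox6b2 was at 3.17, 3.12 and 3.31 FPKM against 2.07, 3.25 and 2.35 (log2 fold change 0.25 ± 0.15 (SE), limma adjusted p = 0.452). Of 14 regulators of mitochondrial gene expression, 4 were higher and 10 lower, where 38.2% of all genes tested were higher. VNS-TAC lay wholly above the controls in 2 of them and wholly below in 2, against 8.01% and 17.4% of all genes. The 2 with the smallest p are given. Esrrb, an oestrogen-related receptor, was at 14, 13.7 and 14.2 FPKM against 8.69, 10.4 and 12 (log2 fold change 0.41 ± 0.14 (SE), limma adjusted p = 0.264). Tfb1m, a methyltransferase of the mitochondrial ribosome, was at 5.61, 5.13 and 5.38 FPKM against 7.63, 7.48 and 6.73 (log2 fold change -0.38 ± 0.12 (SE), limma adjusted p = 0.255). In both, the 3 VNS-TAC libraries lay close together and apart from the controls.

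**Figure D4:**
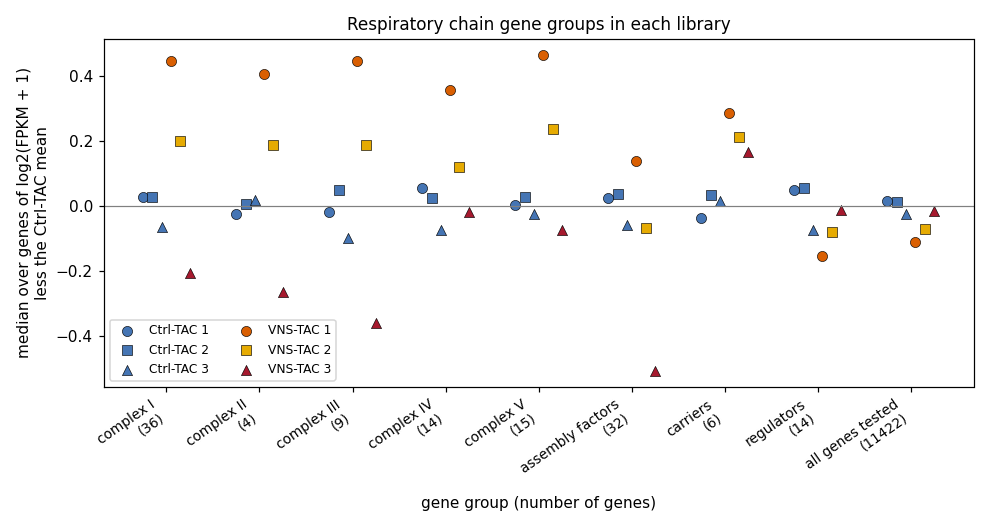
Median over genes of log2(FPKM + 1) less the Ctrl-TAC mean, per library, for complexes I to V, their assembly factors, mitochondrial carriers, regulators and all 11422 genes tested. Complexes I to V share the order VNS-TAC 1, 2, 3 from high to low, with VNS-TAC 3 at -0.36 for complex III and -0.51 for assembly factors but 0.16 for carriers.

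How far each complex lay from the controls moved with the scaling of the libraries. For complex V the VNS-TAC 1 median was 0.61 with size factors, 0.47 as deposited, 0.30 with the same sum per library and 0.19 after quantile normalization, and the VNS-TAC 3 median ran from -0.13 to -0.07 under these settings. The order VNS-TAC 1, 2, 3 held for each complex under these 4 scalings and with the GC trend removed. With the length trend removed, VNS-TAC 2 was above VNS-TAC 1 in complexes III and IV. VNS-TAC 3 was below every Ctrl-TAC median for complex III in all 6 settings, between -0.45 and -0.35.

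**Figure D5:**
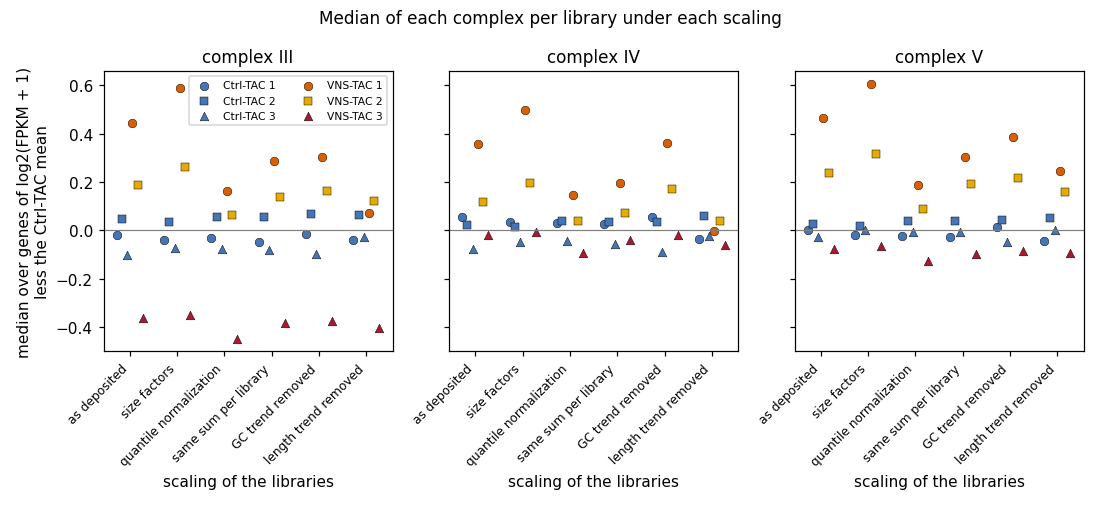
Median over the genes of each complex of log2(FPKM + 1) less the Ctrl-TAC mean, per library, under 6 ways of scaling. Under quantile normalization VNS-TAC 1 (orange circles) drops to 0.17, 0.15 and 0.19 for complexes III, IV and V, and VNS-TAC 3 (dark red triangles) is lowest for each. As deposited, Ctrl-TAC 3 is lowest for complex IV.

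Reads of some members are uncertain, because respiratory genes have processed copies elsewhere in the genome and it is not known how the authors' counting treated reads that match more than 1 place. RefSeq names 15 pseudogenes after 8 of the members, Uqcrh, Cycs, Cox5b, Cox7c, Atp5f1c, Atp5pb, Atp5me and Atp5mg. For Uqcrh, Atp5f1c and Atp5mg, whose groups did not overlap, the effect of such copies was not tested.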

How the data were processed

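The authors deposited FPKM values per the file headers, to 2 decimals, for 18019 NCBI gene IDs in 6 columns. Per the submitters' processing notes the tools were HISAT, featureCounts (1.5.0-p3) and DESeq (1.8.3) on GRCm38, with no role stated. Annotation and counting settings: not given in the sources used here. Library names tie each Ctrl-TAC column to its sample. For VNS-TAC they do not, because columns run from 1 to 3 and library names from 4 to 6, so these columns serve as 3 libraries of the group. Groups come from titles, because a treatment tag reads VNS for controls too. Symbols came from RefSeq GRCm38.p6 for 17890 IDs and GENCODE M21 for 14 more, and transcript length and GC from GENCODE M21 for 96.8% of IDs.

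Values were tested as log2(FPKM + 1), a scale that understates changes of low genes, where a gene's mean reached 1 FPKM. limma 3.58.1 in R 4.3.3 (intensity trend, 4 residual degrees of freedom) with Benjamini-Hochberg adjustment was used and tested on simulated data. That simulation gave all libraries independent noise of equal variance. It therefore does not cover libraries of unequal weight or trends shared by many genes, as seen here. Ratios were compared with exact permutation tests (scipy 1.17.1). FPKM carry no library size, so depth was estimated from the steps of low values. Members, lists and tests were chosen with earlier results of these data known. All 39 members are accounted for. Named with every library and its test are the isoform pairs, the 3 members of each complex with the smallest p, its most abundant member, the Atp5mc genes, Cycs and Cyc1, and 2 genes of each other list. Other members that are given by library, such as Atp5f1a, Atp5pf and Uqcrfs1, were chosen after their values were seen. Alternatives were pseudocounts, filters, scalings, forms of limma, removal of GC or length trends and each library left out.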

Additional observations from a re-analysis of the deposited data

How the results depend on the processing

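No gene passed the adjusted limma threshold as reported. The number past it was 1 when genes needed a mean of 5 FPKM, 2 with size factors, 2 after quantile normalization, 2 with the GC trend removed and 1016 with array weights, and 0 to 3 when 1 library was left out (3 without VNS-TAC 3 and 3 without Ctrl-TAC 1). At an unadjusted p under 0.05 it was 433 higher and 1286 lower, and leaving out 1 library gave 176 to 810 higher and 590 to 1905 lower. Array weights put Atp5f1c past the threshold (adjusted p = 0.0386, range over its alternatives 0.0386 to 0.711), in a fit whose weights were 0.246, 2.82 and 0.247 for VNS-TAC 1, 2 and 3 and 2.9, 1.88 and 1.07 for Ctrl-TAC 1, 2 and 3. The complex IV median went from 0.16 to 0.013 after quantile normalization and to -0.013 with the length trend removed. When 1 library was left out, the medians ran from -0.08 to 0.32 for complex III, 0.05 to 0.25 for complex IV and 0.11 to 0.34 for complex V.

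Of 361 values of the 19 named members under alternatives, 343 kept their direction, and 11 of the 19 members kept it in all. The direction turned after quantile normalization for Cyc1 (-0.12) and Uqcr11 (-0.07), with the same sum per library for Cyc1 (-0.009), with size factors for Cox8b (0.044), with the GC trend removed for Cyc1 (-0.035), Cycs (0.056), Uqcr11 (-0.009) and Uqcrb (0.064), and with the length trend removed for Cyc1 (-0.016), Cox8a (-0.03) and Uqcr11 (-0.10). The cause was not tested. Leaving out 1 library gave -0.012 to 0.54 for Atp5mc1, -0.66 to 0.037 for Cox7a1, -0.22 to 0.15 for Cox8b, -0.20 to 0.41 for Cyc1, -0.33 to 0.11 for Cycs and -0.13 to 0.34 for Uqcr11. It gave -0.10 to 0.22 for the Cox6a2 to Cox6a1 log2 ratio, negative without VNS-TAC 3, and -0.95 to -0.25 for Cox7a1 to Cox7a2. The recount of groups that do not overlap under each scaling was chosen after seeing the data. No paired analysis was possible because column and library numbers disagree for VNS-TAC, which leaves no number to pair on, and no replicate block was fitted.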
